A study of Mus musculus with 38 samples.

Results

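Activin and Nodal signalling in mouse embryonic stem cells was followed through 8 genes: Inhbb and Inhba, which encode the activin beta B and beta A subunits, Nodal, its co-receptor Tdgf1 (Cripto), the secreted Nodal antagonists Lefty1 and Lefty2, and the intracellular feedback inhibitors Smad7 and Skil (SnoN). They were picked by symbol from the 22408 genes of the count table that have counts above 0, and 8 of 8 were present. The choice rested on earlier results of these data. Above all, these were the changes of Inhbb, Lefty1 and Lefty2 after 24 h of BRM014 in wild-type cells. That contrast is therefore described here without a test. Its vehicle libraries (wild type, DMSO for 24 h) also serve in other comparisons, with the analog, after washout, over time and between lines. The p-values of those comparisons are not independent of the choice of members.

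Activins and Nodal are secreted ligands of the TGF-beta family. They bind receptor serine/threonine kinases that phosphorylate SMAD2 and SMAD3, and Nodal additionally needs an EGF-CFC co-receptor such as Tdgf1. The phosphorylated SMADs enter the nucleus with SMAD4 and, with partners such as FOXH1, switch on Nodal itself, the Lefty genes and inhibitors such as Smad7 and Skil, so that the pathway feeds back on itself positively and negatively. Mouse embryonic stem cells make their own Nodal and activin.

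BRM014 blocks the ATPases BRG1 and BRM, the motors of SWI/SNF chromatin remodelling complexes. All cells were embryonic stem cells of the 129S6/SvEvTac strain, kept on gelatin in serum and LIF. Wild-type cells of the batch labelled 2450 were sampled after 30 min, 1 h, 3 h, 6 h and 24 h in 10 uM BRM014. Others received 10 uM of an inactive analog for 1 h or 24 h, a washout of 30 min or 1 h after 1 h of BRM014, a washout of 6 h or 24 h after 24 h of BRM014, or DMSO (the vehicle) for 1 h or 24 h, with 2 libraries in each of these 13 groups. In the batch labelled 2457, the line labelled Ino80ko, the line labelled Snf2hko and wild-type cells received 10 uM BRM014 or DMSO for 24 h, again with 2 libraries per group. Ino80 is the motor of the INO80 remodelling complex, and Snf2h that of the ISWI complexes. How the knockout alleles were made and whether each line is 1 clone is not given in the sources read here. There was no vehicle at 30 min, 3 h or 6 h and no washed vehicle. No vehicle matched the total time of drug plus washout. For the cells that were washed, no dose is stated.

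The libraries held between 19.3 and 23.1 M counts in batch 2450 and between 21.9 and 44.5 M in batch 2457. M stands for mega, and levels are in CPM, the counts of a gene per M counts of the library after TMM scaling. The replicates are called biological by the labels, but which cultures they came from is not given, so p-values measure the spread between these samples only, which may be technical. Embryonic stem cell markers were high in every library (summed 4285 to 6317 CPM for 10 markers, of which Tet1 had 0 counts) and 7 fibroblast markers were low (2.25 to 12.6 CPM in sum). The label check was incomplete: Ino80 had 124 and 119 CPM in the Ino80ko line with DMSO, 126 and 121 CPM in the Snf2hko line and 170 and 170 CPM in wild type, so its count over the whole gene does not tell the Ino80ko line from the Snf2hko line, and Smarca5, the gene of Snf2h, had 0 counts in every library, wild type included. Smarca4, which encodes BRG1, was listed at 0 as well. Smarca2, which encodes BRM, had counts and differed between the lines. With DMSO in batch 2457 it had 4.19 and 4.31 CPM in Ino80ko, 45.4 and 43.7 CPM in Snf2hko and 10.4 and 10.8 CPM in wild type. The part of Smarca2 in the results of the lines was not tested. How reads were counted is not stated, so 0 counts in every library are not read here as no expression.

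In wild-type cells with DMSO for 24 h in batch 2450, Tdgf1 was by far the most abundant member per length of transcript, at 358 ± 6.2 CPM per kb of exonic sequence (SD, n = 2). Inhbb followed with 62.2 ± 3.89 CPM per kb, Nodal with 52.7 ± 1.10 CPM per kb and Skil with 51.1 ± 6.98 CPM per kb, and these neighbours lay close to each other. Lefty1 had 36.3 ± 4.97 CPM per kb, Smad7 27.4 ± 1.29 CPM per kb and Lefty2 18.8 ± 1.32 CPM per kb. Inhba was nearly silent: it had 0 to 8 counts in each library of batch 2450 and did not pass the filter on low counts there. Member counts in the text therefore run over the other 7 members.

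On mouse build GRCm38, Inhbb lies on chromosome 1 (119415465 to 119422248, minus strand) and Nodal on chromosome 10 (61417972 to 61425338, plus strand). The 250 bases before each start site, from RefSeq (GRCm38.p6), are shown because these ligand genes moved in opposite directions under BRM014. Capitals mark CG dinucleotides.
Inhbb promoter, chr1:119422249-119422498, minus strand: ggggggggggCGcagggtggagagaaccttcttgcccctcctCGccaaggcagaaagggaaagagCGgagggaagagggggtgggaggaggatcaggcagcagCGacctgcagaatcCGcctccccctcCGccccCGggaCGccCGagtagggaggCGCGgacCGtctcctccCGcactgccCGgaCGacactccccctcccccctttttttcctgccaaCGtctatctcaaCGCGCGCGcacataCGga
Nodal promoter, chr10:61417722-61417971, plus strand: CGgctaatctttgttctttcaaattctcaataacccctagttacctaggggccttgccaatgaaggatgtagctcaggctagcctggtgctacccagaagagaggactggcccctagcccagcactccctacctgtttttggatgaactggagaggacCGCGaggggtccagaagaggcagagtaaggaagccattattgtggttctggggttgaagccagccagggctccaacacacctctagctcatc
The Inhbb window had 68% G+C and 21 CG dinucleotides, and the Nodal window 53.2% and 3, beside medians of 52.4% and 6 over 32851 promoter windows of the same length. Neither window held the SMAD box CAGAC (found in 42.2% of all windows on either strand), the palindrome GTCTAGAC (0.167%), the FOXH1 element AATCCACA (0.718%) or a TATAAA box (12.4%). Both strands were searched. CAGAC and the palindrome share the letters AGAC, and no motif contains another. Of the 8 members, 4 had a promoter in the RefSeq table, and that of Tdgf1 held 1 SMAD box.

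Lefty1 (chromosome 1, 180935022 to 180938400, plus strand) and Lefty2 (chromosome 1, 180893108 to 180899103, plus strand) are neighbouring copies. Their coding sequences in GENCODE M21 are 1104 bases each, with 90 mismatches and 91.8% identity. Of the 50-base words of the transcripts, 17.9% of those of Lefty1 and 11.6% of those of Lefty2 occurred in the other gene, so reads from such stretches could be split between them or lost, depending on how multiply mapping reads were counted. The most different window of 90 coding bases is shown because it tells the copies apart, with capitals at the bases that differ.
Lefty1, coding bases 35 to 124: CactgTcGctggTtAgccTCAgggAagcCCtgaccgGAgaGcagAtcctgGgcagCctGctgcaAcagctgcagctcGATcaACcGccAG
Lefty2, coding bases 35 to 124: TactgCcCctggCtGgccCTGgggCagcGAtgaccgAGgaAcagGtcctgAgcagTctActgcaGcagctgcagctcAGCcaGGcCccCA
This window had 27 differences.

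Against DMSO 1 h, Inhbb was lower and Nodal higher after 1 h of BRM014, and both Lefty genes had fallen by 3 h (the plot of the members over time). Changes are log2 fold changes ± standard error from edgeR's quasi-likelihood test, with Benjamini-Hochberg adjustment over all genes tested, and called means an adjusted p under 0.05. At 1 h, the Inhbb libraries overlapped those of DMSO 24 h. Neither Inhbb nor Nodal was called against the inactive analog for 1 h in the main edgeR fit. After 30 min of BRM014, 0 of 7 members were called against DMSO 1 h, beside 0% of 12517 genes (348 genes had an unadjusted p under 0.05, and DESeq2 called 0 genes too). No member had an unadjusted p under 0.05 at 30 min.

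**Figure D1:**
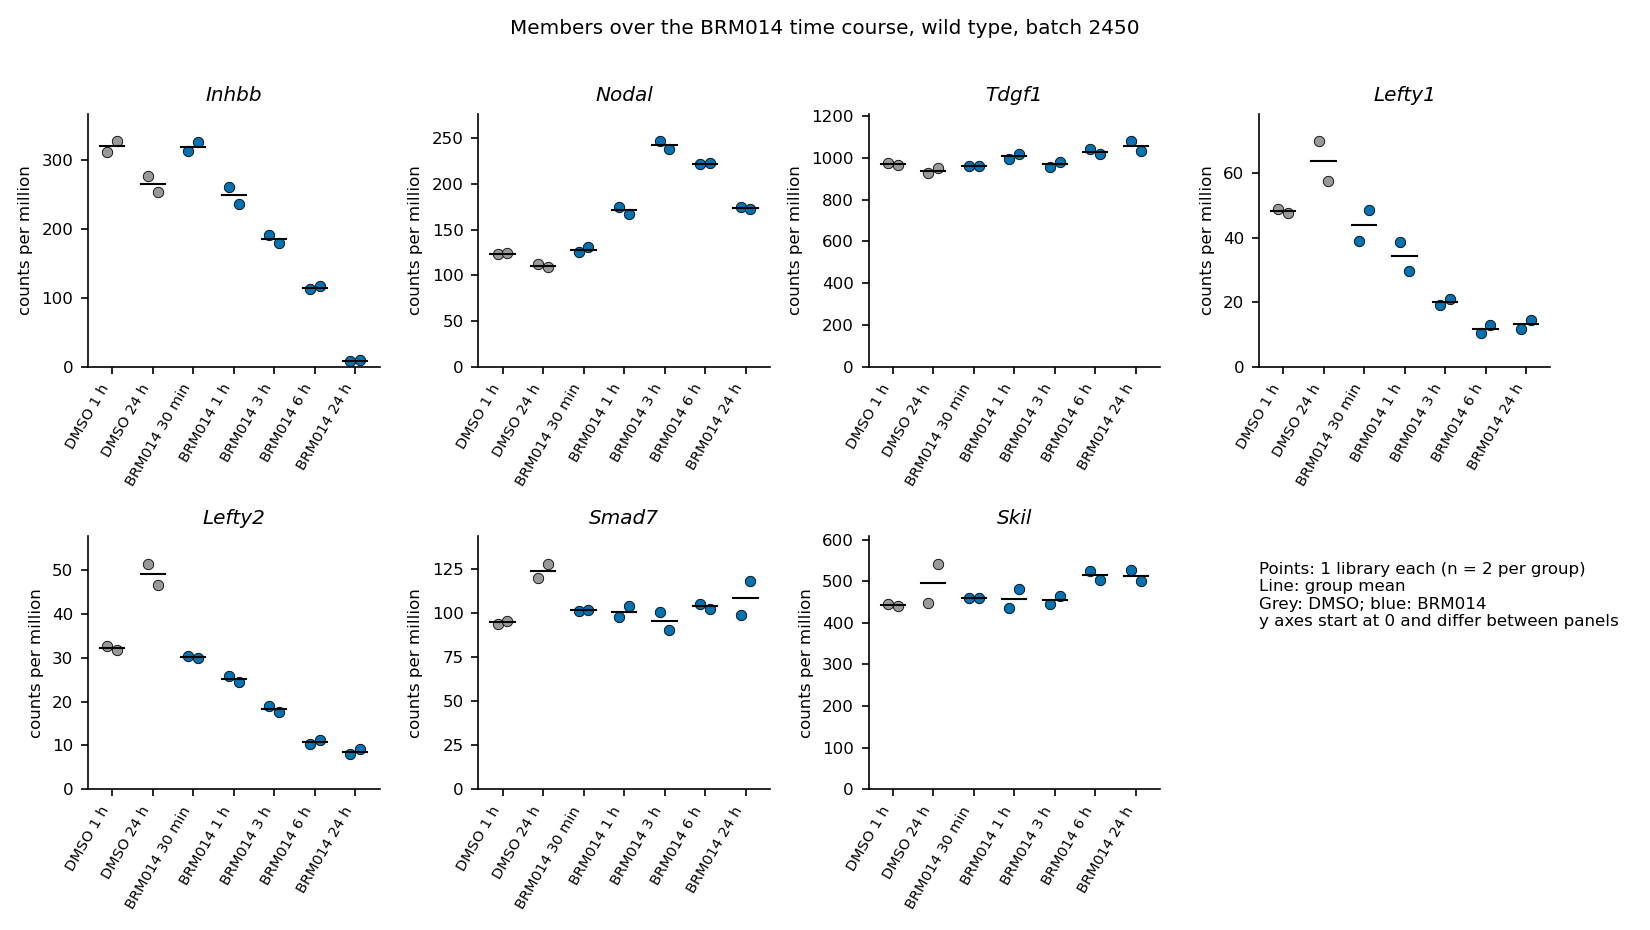
CPM of 7 members in wild-type cells of batch 2450, with DMSO for 1 h or 24 h and with BRM014 for 30 min to 24 h. Each point is 1 library and each line a group mean (n = 2). Inhbb declined to 8.03 and 9.25 CPM at 24 h and both Lefty genes declined by 3 h, whereas Nodal was highest at 3 h, at 247 and 239 CPM.

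Inhbb, the activin beta B subunit, had 312 and 328 CPM with DMSO 1 h, 276 and 253 CPM with DMSO 24 h, 313 and 326 CPM at 30 min of BRM014 and 261 and 236 CPM at 1 h. It then had 192 and 179.5 CPM at 3 h, 113 and 117 CPM at 6 h and 8.03 and 9.25 CPM at 24 h. From 3 h on, both libraries at each time lay below every DMSO library and below both libraries of the time before. Against DMSO 1 h, Inhbb fell by 1 h (-0.36 ± 0.069, edgeR adjusted p = 0.0053), a call that was lost without replicate 2 of DMSO 1 h (adjusted p = 0.226) or replicate 2 of BRM014 1 h (0.223). Against the mean of both vehicles it fell by 0.65 ± 0.061 on the log2 scale at 3 h (edgeR adjusted p = 2.8e-09) and by 1.34 ± 0.064 at 6 h (adjusted p = 6.36e-16).

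Nodal moved the other way. It had 123 and 124 CPM with DMSO 1 h, 112 and 109 CPM with DMSO 24 h, 125 and 131 CPM at 30 min, 175 and 167 CPM at 1 h, 247 and 239 CPM at 3 h, 222 and 223 CPM at 6 h and 175 and 172 CPM at 24 h. From 1 h on, every BRM014 library lay above every DMSO library, with the highest values at 3 h and both 24 h libraries below those at 6 h. Nodal rose at 1 h (0.47 ± 0.067, edgeR adjusted p = 0.000182), at 3 h (1.05 ± 0.056, adjusted p = 2.7e-14) and at 6 h (0.93 ± 0.056, adjusted p = 9.19e-14). Inhbb and Nodal were the 2 of 7 members called at 1 h, when 0.599% of all genes were called.

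The antagonists Lefty1 and Lefty2 declined together and were called from 3 h on. Lefty1 had 48.9 and 47.8 CPM with DMSO 1 h, 69.9 and 57.6 CPM with DMSO 24 h, 38.8 and 48.6 CPM at 30 min, 38.7 and 29.7 CPM at 1 h, 19.2 and 21 CPM at 3 h, 10.3 and 12.8 CPM at 6 h and 11.8 and 14.5 CPM at 24 h. Lefty2 had 32.6 and 31.6 CPM with DMSO 1 h, 51.5 and 46.6 CPM with DMSO 24 h, 30.4 and 29.8 CPM at 30 min, 25.8 and 24.5 CPM at 1 h, 19.0 and 17.5 CPM at 3 h, 10.3 and 11.3 CPM at 6 h and 7.98 and 9.20 CPM at 24 h. At 1 h the libraries of both genes already lay below every DMSO library, but the changes of Lefty1 (-0.50 ± 0.22, edgeR adjusted p = 0.526) and Lefty2 (-0.35 ± 0.11, adjusted p = 0.206) were not called; with no filter on low counts, that of Lefty1 was (adjusted p = 0.000219). At 3 h Lefty1 fell (-1.46 ± 0.21, adjusted p = 7.75e-05), as did Lefty2 (-1.12 ± 0.10, adjusted p = 1.72e-09). At 6 h the change was larger in size for Lefty1 (-2.27 ± 0.23, adjusted p = 7.6e-07), and for Lefty2 (-1.88 ± 0.11, adjusted p = 4.7e-14).

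The co-receptor gene Tdgf1 (chromosome 9, 110939603 to 110946158, minus strand) and the intracellular inhibitors Smad7 (chromosome 18) and Skil (chromosome 3, 31095058 to 31122577, plus strand) stayed within a narrow range. Tdgf1 had group means of 972 and 938 CPM with DMSO 1 h and DMSO 24 h, and of 968 to 1057 CPM from 3 h to 24 h of BRM014. Its change at 6 h passed the threshold narrowly (0.11 ± 0.042, edgeR adjusted p = 0.0331), and not when any of the 6 libraries compared was left out (adjusted p = 0.0582 to 0.203). Smad7, which blocks receptor signalling inside the cell, had 95.3 CPM at 3 h, beside 94.7 CPM with DMSO 1 h and 124 CPM with DMSO 24 h. Smad7 was not called at 6 h (-0.063 ± 0.069, edgeR adjusted p = 0.475), but was against DMSO 24 h alone (-0.26, adjusted p = 0.00977) and not against DMSO 1 h alone (0.13, adjusted p = 0.203). Its call at 3 h (-0.18 ± 0.07, adjusted p = 0.0454) depended on the vehicle as well: it was -0.38 against DMSO 24 h alone (adjusted p = 0.000523) and 0.0086 against DMSO 1 h alone (adjusted p = 0.956). Skil, a corepressor that binds SMADs, had group means of 443 and 495 CPM with the vehicles and 454 to 515 CPM at 3 h and 6 h, and was not called at either time (edgeR adjusted p = 0.668 and 0.0863). At 6 h it was called against DMSO 1 h alone (0.22, adjusted p = 0.0231), with no filter on low counts (0.0494) and without replicate 2 of DMSO 24 h (0.00744). In all, 5 of 7 members were called at 3 h, beside 31.2% of all genes, and 5 of 7 at 6 h, beside 48.4%.

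At 24 h of BRM014 in wild type, 49.6% of the 11787 genes tested over both batches were called, and the members are given as a description. Inhbb averaged 9.20 ± 0.828 CPM with BRM014 (range 8.03 to 9.91) and 248 ± 22.5 CPM with DMSO (range 223 to 276; SD, n = 4 each), a log2 fold change of -4.73 ± 0.092. Lefty1 averaged 11.8 ± 2.10 CPM with BRM014 and 71.9 ± 11.1 CPM with DMSO (-2.61 ± 0.14), and Lefty2 averaged 8.57 ± 0.605 CPM with BRM014 and 50.6 ± 4.45 CPM with DMSO (-2.56 ± 0.093). Within each batch the BRM014 and DMSO groups did not overlap for these 3 genes, nor for Nodal, Tdgf1 and Smad7. For Skil they overlapped in batch 2450. Lack of overlap thus does not set these 3 genes apart, and its share over all genes was not computed. Nodal averaged 172 ± 3.54 CPM with BRM014 and 102 ± 11.2 CPM with DMSO (0.76 ± 0.068, 95% interval 0.61 to 0.90). The intervals were 0.056 to 0.28 for Tdgf1, -0.34 to -0.035 for Smad7 and -0.22 to 0.081 for Skil, so none of these 3 moved by as much as Nodal. By batch, Lefty1 changed by -2.28 ± 0.24 in batch 2450 and -2.93 ± 0.11 in batch 2457, Nodal by 0.65 ± 0.068 and 0.85 ± 0.077, and Skil by 0.054 ± 0.076 and -0.20 ± 0.066, which differ in sign. In bulk RNA, fewer cells of a type and less RNA per cell cannot be told apart.

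The vehicle itself was not constant. Between DMSO 24 h and DMSO 1 h, 3 of 7 members were called, beside 18.5% of all genes. Lefty2 was higher with DMSO 24 h (51.5 and 46.6 CPM) than with DMSO 1 h (32.6 and 31.6 CPM), by 0.61 ± 0.11 (edgeR adjusted p = 0.000183), and so was Smad7 (0.39 ± 0.08, adjusted p = 0.00101). Inhbb was lower (-0.27 ± 0.069, adjusted p = 0.0055), but was not called when replicate 2 of DMSO 1 h or of DMSO 24 h was left out (adjusted p = 0.101 and 0.102). These drifts bear on every comparison with 1 vehicle.

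The inactive analog differs from BRM014 by a change that the labels do not describe. After 1 h of analog, 0 of 7 members were called against DMSO 1 h by edgeR, beside 0.184% of all genes; 3 had an unadjusted p under 0.05, and DESeq2 called 0. Inhbb had 263 and 267 CPM with the analog and 312 and 328 CPM with DMSO 1 h (-0.27 ± 0.068, adjusted p = 0.109), and Nodal had 141 and 137 CPM with the analog and 123 and 124 CPM with DMSO 1 h (0.17 ± 0.068, adjusted p = 0.412). Set directly against the analog, BRM014 for 1 h gave 0 of 7 members called, beside 0.16% of all genes, with 3 at an unadjusted p under 0.05. Nodal came nearest, with 175 and 167 CPM with BRM014 and 141 and 137 CPM with the analog (0.30 ± 0.067, 95% interval 0.17 to 0.44, edgeR adjusted p = 0.0593), and DESeq2 called it (adjusted p = 0.0196). For Inhbb the interval of this difference was -0.23 to 0.049, and a difference at 1 h was not detectable for it.

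After 24 h, both Lefty genes were lower with the analog, whereas Inhbb was not called against DMSO 24 h. The DMSO 24 h libraries are the other arm of the contrast behind the choice of members. Tests against them are therefore not independent of that choice. Lefty1 had 27.4 and 25.8 CPM with the analog and 69.9 and 57.6 CPM with DMSO 24 h (-1.26 ± 0.22, edgeR adjusted p = 0.00107). Lefty2 had 18.6 and 17.6 CPM with the analog and 51.5 and 46.6 CPM with DMSO 24 h (-1.44 ± 0.11, adjusted p = 5.04e-10). The groups did not overlap for either gene, and both analog libraries also lay below the DMSO 1 h libraries, with log2 fold changes of -0.86 for Lefty1 (adjusted p = 0.00933) and -0.83 for Lefty2 (adjusted p = 3.04e-06). Inhbb had 249 and 233 CPM with the analog and 276 and 253 CPM with DMSO 24 h, and its change was not called (-0.14 ± 0.069, adjusted p = 0.184), although it was against DMSO 1 h (-0.41, adjusted p = 4.1e-05). Nodal was not called either (0.077 ± 0.068, adjusted p = 0.476). Tdgf1 (0.16 ± 0.049, adjusted p = 0.0203) and Skil (-0.30 ± 0.076, adjusted p = 0.00622) brought the count to 4 of 7, beside 18.4% of all genes. Neither was called against DMSO 1 h (adjusted p = 0.0857 and 0.176). Tdgf1 was not called without replicate 1 of DMSO 24 h (adjusted p = 0.0846) or replicate 2 of the analog (0.208), nor Skil without replicate 2 of DMSO 24 h (0.249) or replicate 1 of the analog (0.109).

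Between BRM014 and the analog at 24 h, 35.4% of all genes were called, and the members are again described without a test because the BRM014 libraries are those behind their choice. Inhbb had 8.03 and 9.25 CPM with BRM014 and 249 and 233 CPM with the analog, a difference of -4.80 ± 0.091 with a 95% interval of -4.99 to -4.62. The Lefty genes differed less, with -1.02 ± 0.25 for Lefty1 (-1.56 to -0.48) and -1.08 ± 0.13 for Lefty2 (-1.35 to -0.80). Nodal was higher with BRM014 by 0.57 ± 0.068 (0.43 to 0.71) and Skil by 0.35 ± 0.076 (0.20 to 0.51). Tdgf1 and Smad7 had intervals of -0.09 to 0.11 and -0.21 to 0.11.

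**Figure D2:**
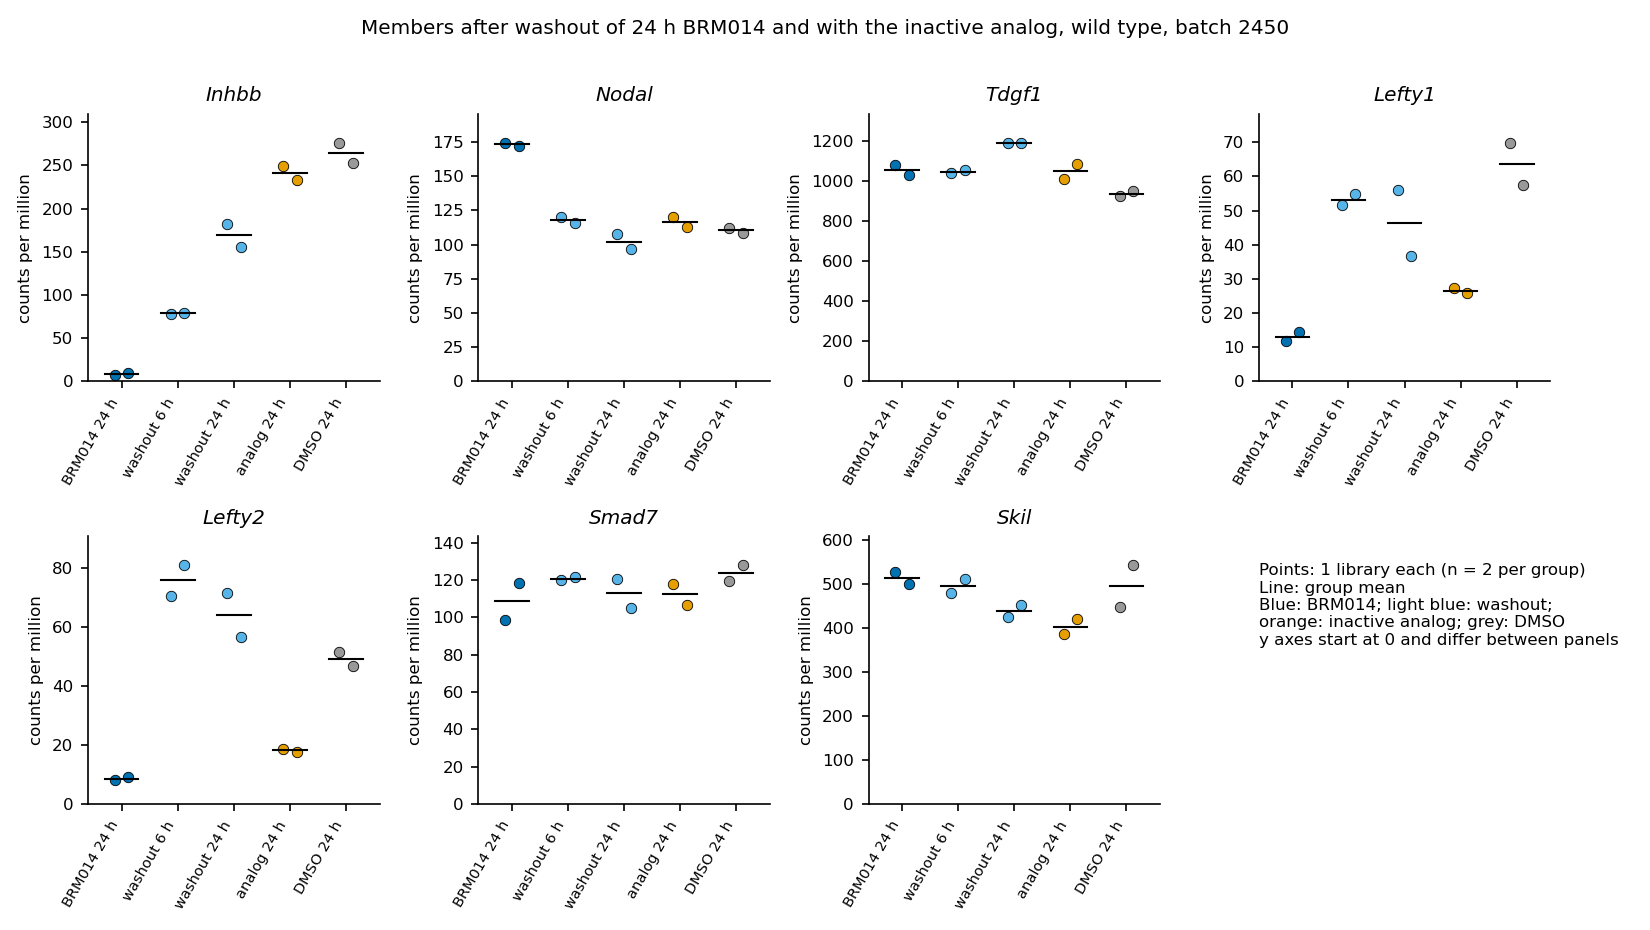
CPM of 7 members in wild-type cells of batch 2450 with BRM014 for 24 h, after 6 h and 24 h of washout that followed 24 h of BRM014, with the inactive analog for 24 h and with DMSO for 24 h. Each point is 1 library and each line a group mean (n = 2). Inhbb was still below DMSO 24 h after 24 h of washout, Lefty2 lay above it at 6 h and 24 h of washout, and the analog lay low for both Lefty genes.

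Shortly after 1 h of BRM014, Nodal stayed up. It had 154 and 175 CPM after 30 min of washout and 178 and 156 CPM after 1 h, against 123 and 124 CPM with DMSO 1 h, and rose by 0.41 ± 0.067 (edgeR adjusted p = 0.000328) and 0.43 ± 0.067 (adjusted p = 9.07e-05). All 4 washout libraries lay above both DMSO libraries, close to the level with BRM014 for 1 h and no washout. Nodal was the 1 member of 7 called after 30 min, beside 5.36% of all genes, and 2 of 7 were called after 1 h, beside 8.1%. The other was Inhbb, with 267 and 259 CPM after 1 h of washout and 312 and 328 CPM with DMSO 1 h (-0.28 ± 0.068, adjusted p = 0.00893), but was not called when replicate 2 of the washout or of DMSO 1 h was left out (adjusted p = 0.0968 and 0.149). These comparisons and those of 30 min and 1 h of BRM014 share the DMSO 1 h libraries.

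When BRM014 was washed out after 24 h, Inhbb stayed below DMSO 24 h at both times sampled. These cells had the washout time on top of 24 h of drug, and no vehicle of that length was sampled. Effects of washout and of time in culture therefore cannot be told apart for any member here. Inhbb had 78.5 and 79.2 CPM after 6 h of washout and 182 and 156 CPM after 24 h, against 276 and 253 CPM with DMSO 24 h. All 4 washout libraries lay below both DMSO libraries. Against DMSO 24 h, Inhbb was lower at 6 h (-1.75 ± 0.072, edgeR adjusted p = 5.52e-17) and at 24 h (-0.65 ± 0.069, adjusted p = 9.61e-08), and it rose between these washout times (1.10 ± 0.072, adjusted p = 1.05e-12). Against DMSO 1 h it was lower too, with log2 fold changes of -2.02 and -0.92 (adjusted p = 1.71e-18 and 3.89e-11).

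Lefty2 lay above DMSO 24 h after washout. It had 70.5 and 80.9 CPM after 6 h of washout and 71.5 and 56.5 CPM after 24 h, against 51.5 and 46.6 CPM with DMSO 24 h, and the groups did not overlap. It was higher by 0.62 ± 0.10 at 6 h (edgeR adjusted p = 2.24e-05) and by 0.38 ± 0.11 at 24 h (adjusted p = 0.0114), the second a call lost without replicate 1 of the washout (adjusted p = 0.304) or replicate 2 of DMSO 24 h (0.127). Lefty1 had 51.6 and 54.9 CPM at 6 h and 56 and 36.8 CPM at 24 h, against 69.9 and 57.6 CPM with DMSO 24 h, and was not called (-0.26 ± 0.21, adjusted p = 0.365, and -0.46 ± 0.22, adjusted p = 0.168), although with no filter on low counts it was lower at both times (adjusted p = 0.0123 and 3.76e-05). At 6 h of washout, the summed level of 6 primitive streak and mesoderm markers (none at 0 counts throughout) was 53.8 to 57.0 CPM, against 10.1 to 10.4 CPM with DMSO 24 h. The sum of 4 neural markers (Sox1 and Neurog1 at 0 counts throughout) was 138 to 146 CPM, against 60.9 to 61.6 CPM. That of 5 trophoblast markers (Gata3 at 0) was 83.1 to 87.3 CPM, against 59.0 to 59.3 CPM, and that of 7 endoderm markers (Pdgfra at 0) was 189 to 191 CPM, against 159.7 to 178 CPM. The primitive streak, neural and trophoblast sums rest largely on few genes. Over all libraries, Kdr reached 42.2 and Eomes 29.5 CPM, and no other primitive streak or mesoderm marker passed 5.18 CPM. Nes reached 127 CPM and Pax6 19.8 CPM. Tfap2c reached 82.3 CPM, and no other trophoblast marker passed 4.57 CPM. The part of the markers in the result was not tested.

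Nodal was near the level of DMSO 24 h after 6 h of washout, with 120.1 and 116 CPM against 112 and 109 CPM (0.10 ± 0.068, edgeR adjusted p = 0.278). It had 108 and 96.7 CPM after 24 h of washout, below the level after 6 h (-0.21 ± 0.068, adjusted p = 0.0152), a call lost without replicate 1 of the 6 h washout (adjusted p = 0.141) or replicate 2 of the 24 h washout (0.316). Tdgf1 rose by 0.35 ± 0.049 after 24 h of washout (adjusted p = 8.8e-06), with 1192 and 1193 CPM against 927 and 950.0 CPM with DMSO 24 h. Its call at 6 h (0.16 ± 0.049, adjusted p = 0.0104) was lost without replicate 1 of DMSO 24 h or either washout library (adjusted p = 0.0623 to 0.0747). Between the washout times it rose by 0.19 ± 0.049 (adjusted p = 0.00311). The members called were 3 of 7 at 6 h, beside 39.8% of all genes, 3 of 7 at 24 h, beside 17.4%, and 3 of 7 between the washout times, beside 40.3%. Smad7 and Skil were called in none of these 3 comparisons (edgeR adjusted p = 0.0699 to 0.989). Smad7 depended on the vehicle: it was higher than with DMSO 1 h after 6 h (0.35, adjusted p = 0.000943) and 24 h of washout (0.25, adjusted p = 0.0197), and with the analog for 24 h (0.25, adjusted p = 0.0198).

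Set against BRM014 24 h, where 48.7% of all genes were called and the members are described without a test, 6 h of washout had higher Inhbb by 3.19 ± 0.092 (95% interval 3.0 to 3.38), Lefty2 by 3.14 ± 0.12 (2.88 to 3.39) and Lefty1 by 2.02 ± 0.25 (1.5 to 2.55). Nodal was lower, with a log2 fold change of -0.55 ± 0.068 (-0.69 to -0.42).

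The lines labelled Ino80ko and Snf2hko differed from wild type before any drug (the plot of the members by line). With DMSO for 24 h, 6 of 7 members were called between Ino80ko and wild type, beside 45% of 13130 genes, and 6 of 7 between Snf2hko and wild type, beside 56.5%. Inhbb had 437 and 446 CPM in Ino80ko cells, 287 and 294 CPM in Snf2hko cells and 239 and 223 CPM in wild type, and was higher in Ino80ko (0.93 ± 0.061, edgeR adjusted p = 4.94e-10) and in Snf2hko (0.33 ± 0.06, adjusted p = 0.000119). Nodal was lower in both, at 68.7 and 66.4 CPM in Ino80ko, 69.9 and 75.3 CPM in Snf2hko and 102 and 86.9 CPM in wild type (-0.48 ± 0.077, adjusted p = 5.3e-05, and -0.37 ± 0.077, adjusted p = 0.000383). Both knockout lines lay outside the wild-type range for these ligand genes, on opposite sides for Inhbb and Nodal.

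**Figure D3:**
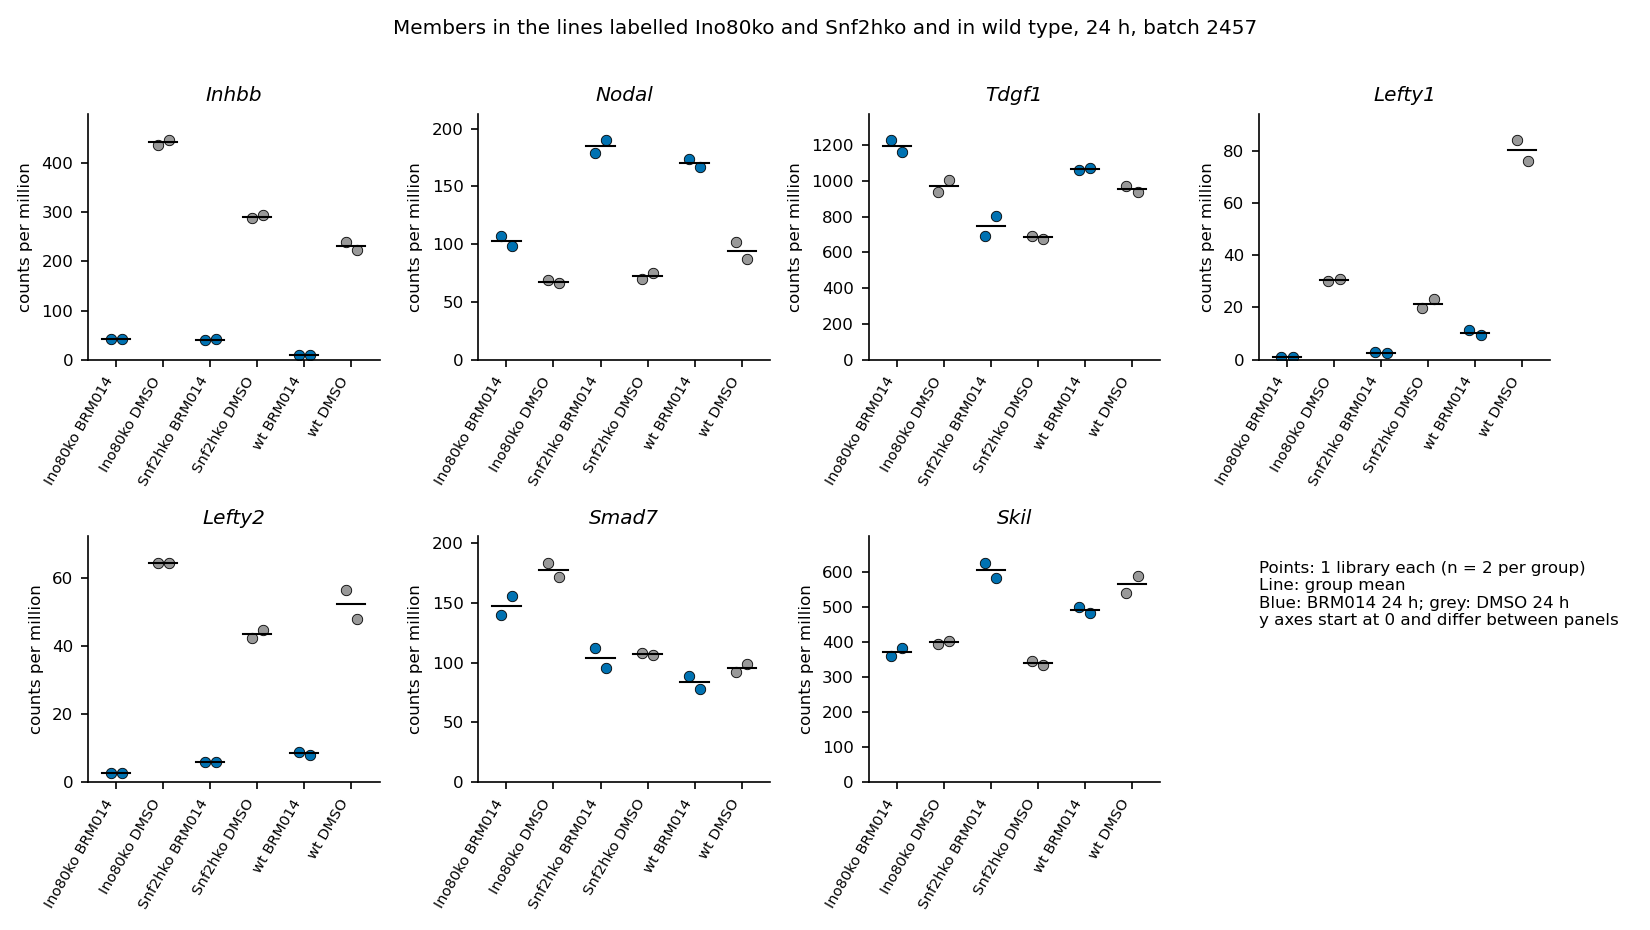
CPM of 7 members with BRM014 or DMSO for 24 h in the lines labelled Ino80ko and Snf2hko and in wild type, batch 2457. Each point is 1 library and each line a group mean (n = 2). Inhbb stayed near 40 CPM with BRM014 in both lines and near 10 CPM in wild type, and Skil was higher with BRM014 than with DMSO in the Snf2hko line.

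Lefty1 was lower in both lines, with 29.9 and 31.0 CPM in Ino80ko, 19.8 and 23.1 CPM in Snf2hko and 83.9 and 76.2 CPM in wild type (-1.39 ± 0.10, edgeR adjusted p = 1.9e-09, and -1.90 ± 0.10, adjusted p = 1.28e-11). Lefty2 did not follow it: it had 64.5 and 64.3 CPM in Ino80ko, 42.4 and 44.6 CPM in Snf2hko and 56.6 and 47.9 CPM in wild type. Its calls, higher in Ino80ko (0.30 ± 0.086, adjusted p = 0.00747) and lower in Snf2hko (-0.26 ± 0.086, adjusted p = 0.0142), were lost without wild-type replicate 4 (adjusted p = 0.129) and without wild-type replicate 3 (adjusted p = 0.238) or Snf2hko replicate 1 (0.122).

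The intracellular inhibitors differed between the lines. Smad7 was higher in Ino80ko, with 183 and 171 CPM against 92.3 and 98.6 CPM in wild type (0.89 ± 0.085, edgeR adjusted p = 8.09e-08), and was not called in Snf2hko (0.17 ± 0.085, adjusted p = 0.104). Skil was lower in both, at 395 and 403 CPM in Ino80ko and 345 and 333 CPM in Snf2hko, against 539 and 588 CPM in wild type (-0.50 ± 0.066, adjusted p = 5.36e-06, and -0.73 ± 0.066, adjusted p = 1.8e-08). Tdgf1 was lower in Snf2hko (689 and 677 CPM against 974 and 939 CPM in wild type, -0.48 ± 0.071, adjusted p = 1.04e-05) and was not called in Ino80ko (0.019 ± 0.071, adjusted p = 0.858).

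Inhba (chromosome 13, 16011851 to 16031621, plus strand) overlaps the genes B230303A05Rik and Gm48444 on the other strand. It was detected mainly in the Snf2hko line. It had 101 and 104 counts with BRM014 and 126 and 107 counts with DMSO in Snf2hko, 0 and 2 counts with BRM014 and 0 and 1 counts with DMSO in Ino80ko, and 2 and 0 counts with BRM014 and 7 and 2 counts with DMSO in wild type. The gene passed the filter on low counts only through the Snf2hko libraries, so its difference from the other lines is given as values. Within Snf2hko, BRM014 left it at 2.73 and 2.35 CPM, against 2.88 and 2.33 CPM with DMSO (-0.036 ± 0.29, edgeR adjusted p = 0.927). The Snf2hko libraries also stood apart in endoderm markers: 7 of them (Pdgfra at 0 counts throughout) summed to 691 to 740.2 CPM with BRM014 and 475 to 479.9 CPM with DMSO, and to 43.7 to 44.7 CPM with BRM014 and 48.7 to 52.8 CPM with DMSO in Ino80ko. In wild type they summed to 149 to 168 CPM with BRM014 and 103 to 108 CPM with DMSO. With DMSO, the 5 trophoblast markers summed to 16.3 to 17.0 CPM in Ino80ko and 21.9 to 23.0 CPM in Snf2hko. Their sum in wild type was 70.7 to 74.2 CPM. Of the trophoblast markers, only Tfap2c passed 4.57 CPM in any library. The 6 primitive streak and mesoderm markers summed to 17.9 to 18.3 CPM in Snf2hko, against 6.40 to 7.27 CPM in wild type. The part of these markers in the results of the lines was not tested.

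BRM014 for 24 h lowered Inhbb and both Lefty genes and raised Nodal in each knockout line. In Ino80ko 6 of 7 members were called, beside 44.5% of all genes, and in Snf2hko 5 of 7, beside 56.9%. Inhbb had 42.7 and 42.0 CPM with BRM014 and 437 and 446 CPM with DMSO in Ino80ko (-3.38 ± 0.067, edgeR adjusted p = 3.27e-17). In Snf2hko it had 39.9 and 41.2 CPM with BRM014 and 287 and 294 CPM with DMSO (-2.84 ± 0.066, adjusted p = 1.94e-16). In wild type of the same batch it had 9.91 and 9.62 CPM with BRM014 and 239 and 223 CPM with DMSO (-4.56 ± 0.076, no test).

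Both Lefty genes were lowest in Ino80ko cells with BRM014. Lefty1 had 0.988 and 1.20 CPM there (38 and 48 counts) and 29.9 and 31.0 CPM with DMSO (-4.79 ± 0.15, edgeR adjusted p = 8.12e-15), and Lefty2 had 2.81 and 2.75 CPM with BRM014 and 64.5 and 64.3 CPM with DMSO (-4.53 ± 0.11, adjusted p = 5.56e-16). In Snf2hko, Lefty1 had 2.81 and 2.49 CPM with BRM014 and 19.8 and 23.1 CPM with DMSO (-3.02 ± 0.13, adjusted p = 5.84e-13), and Lefty2 had 5.90 and 5.98 CPM with BRM014 and 42.4 and 44.6 CPM with DMSO (-2.87 ± 0.10, adjusted p = 3.87e-14). In wild type with BRM014, Lefty1 remained at 11.4 and 9.35 CPM and Lefty2 at 8.97 and 8.12 CPM.

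Nodal had 107 and 98.3 CPM with BRM014 and 68.7 and 66.4 CPM with DMSO in Ino80ko (0.60 ± 0.077, edgeR adjusted p = 3e-06), and 179 and 190.0 CPM with BRM014 and 69.9 and 75.3 CPM with DMSO in Snf2hko (1.35 ± 0.077, adjusted p = 3.19e-11). The BRM014 and DMSO groups overlapped in neither line. Skil rose in Snf2hko, to 625 and 583 CPM with BRM014 against 345 and 333 CPM with DMSO (0.83 ± 0.066, adjusted p = 3.34e-09), and was not called in Ino80ko (-0.11 ± 0.066, adjusted p = 0.195). In Ino80ko, Tdgf1 rose by 0.30 ± 0.071 (adjusted p = 0.00175), and Smad7 fell (-0.27 ± 0.084, adjusted p = 0.0144), a call lost without replicate 1 of BRM014 (adjusted p = 0.179) or of DMSO (0.149). In Snf2hko neither Tdgf1 nor Smad7 was called (adjusted p = 0.128 and 0.672), although Tdgf1 was without replicate 1 of BRM014 (0.00919).

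**Figure D4:**
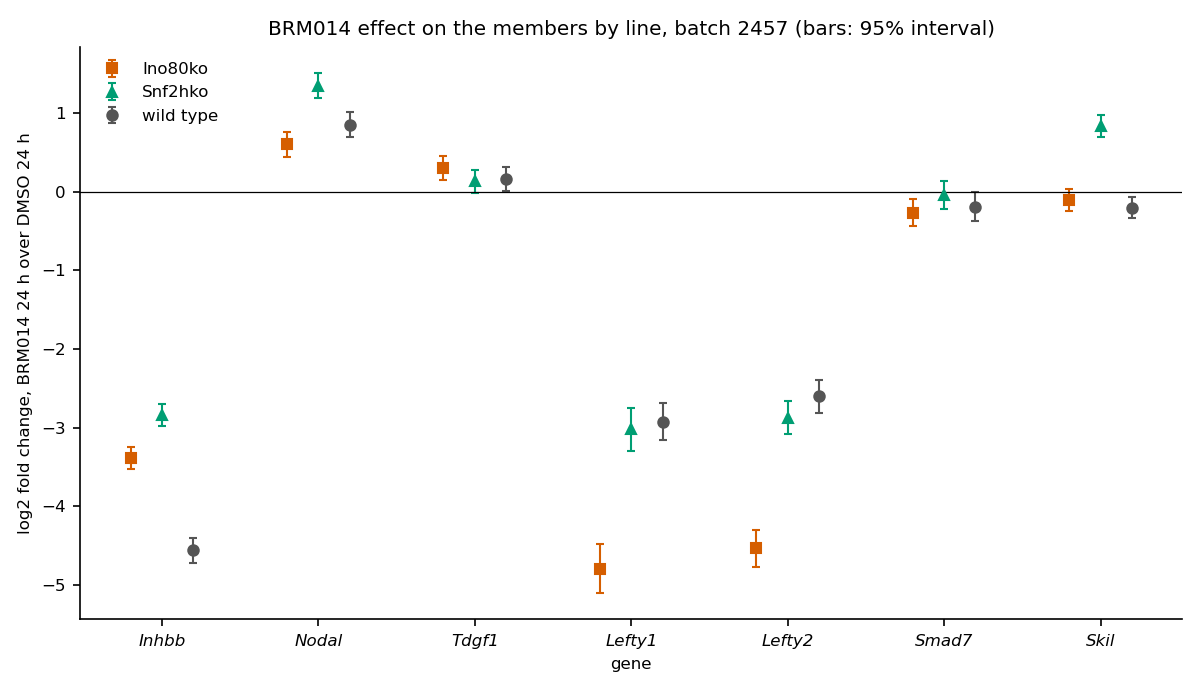
Log2 fold change of BRM014 24 h over DMSO 24 h for 7 members in the lines labelled Ino80ko and Snf2hko and in wild type, batch 2457 (2 libraries per group, bars are 95% intervals). The Inhbb effect was smaller in both knockout lines than in wild type, the Lefty effects were larger in Ino80ko, and Skil was higher with BRM014 in Snf2hko.

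The difference in the BRM014 effect between each line and wild type is also described without a test, since its wild-type arm is part of the contrast behind the choice of members. Over all genes this difference was called for 9.03% in Ino80ko and for 32.6% in Snf2hko (edgeR interaction), and 3 of 7 members were among them in each line, from which nothing is read. In Ino80ko minus wild type, the difference was 1.18 ± 0.10 for Inhbb (95% interval 0.98 to 1.38), -1.86 ± 0.20 for Lefty1 (-2.28 to -1.45) and -1.93 ± 0.15 for Lefty2 (-2.25 to -1.61). The Inhbb effect was thus smaller in size in Ino80ko and the Lefty effects were larger. The Nodal difference was -0.25 ± 0.11 (-0.48 to -0.025). In Snf2hko minus wild type, it was 1.72 ± 0.10 for Inhbb (1.52 to 1.92), 0.49 ± 0.11 for Nodal (0.27 to 0.72) and 1.04 ± 0.093 for Skil (0.84 to 1.23). For Lefty1 and Lefty2 it was -0.094 ± 0.17 (-0.46 to 0.27) and -0.27 ± 0.14 (-0.57 to 0.027), and both intervals include 0. Both differences share the wild-type libraries.

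Other genes of the pathway moved in both directions. In 6 lists of 71 other ligands, receptors, SMADs, regulators, inhibitors and targets, 54 genes passed the filter. Of the rest, 14 had 0 counts in every library, among them the receptor gene Acvr1b. These 0 counts are not read as no expression, and the genes concerned enter none of the counts below. After 6 h of BRM014, 18 of the 54 were called higher and 16 lower, beside 24.9% and 23.5% over all genes (median log2 fold change 0.053, against -9.3e-05 over all 12517 genes). Of 10 other ligand genes 0 rose and 4 fell, and Gdf3, a Nodal-related ligand, was among those that fell (-0.90 ± 0.064, edgeR adjusted p = 1.94e-12). Of 5 receptor genes 4 rose and 1 fell, and of 13 targets 6 rose and 4 fell. Tgfbi, a TGF-beta-induced matrix protein listed with the extracellular regulators, fell (-1.5 ± 0.10, adjusted p = 1.57e-12), and the target Ccn2, a matricellular growth factor, rose (0.68 ± 0.05, adjusted p = 5.53e-12).

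**Figure D5:**
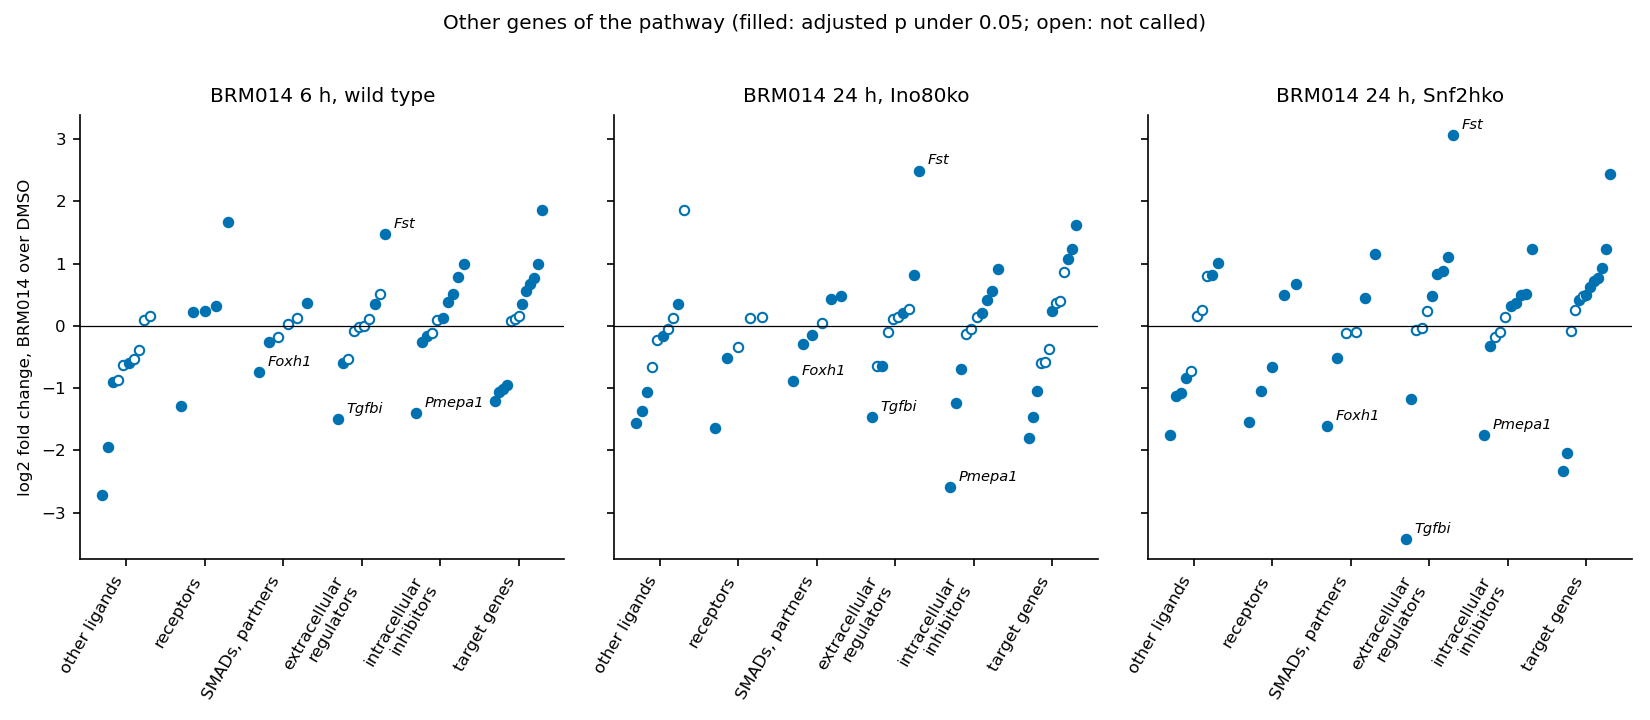
Log2 fold change of BRM014 over DMSO for 54 other genes of the pathway, by list, after 6 h in wild type (against the mean of both vehicles) and after 24 h in the lines labelled Ino80ko and Snf2hko. Filled points were called at an adjusted p under 0.05 and open points were not. Fst lay highest among the extracellular regulators in all 3 comparisons, at 1.47, 2.49 and 3.07.

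Fst and Pmepa1 had the smallest adjusted p-values of the 54 genes at 6 h. Fst encodes follistatin, which binds and neutralises activin. It had 31.4 and 32.5 CPM with DMSO 1 h, 19.7 and 21.2 CPM with DMSO 24 h, 55.9 and 61.0 CPM at 3 h of BRM014, 67.4 and 74.3 CPM at 6 h and 90.2 and 94.8 CPM at 24 h, and rose at 3 h (1.19 ± 0.071, edgeR adjusted p = 2.06e-13) and 6 h (1.47 ± 0.069, adjusted p = 5.35e-16). From 3 h to 24 h its level climbed while that of Inhbb declined, and a link between them was not tested. In Ino80ko it had 24.4 and 28.9 CPM with BRM014 and 4.69 and 4.78 CPM with DMSO (2.49 ± 0.10, adjusted p = 3.56e-13), and in Snf2hko 236 and 238 CPM with BRM014 and 26.7 and 29.9 CPM with DMSO (3.07 ± 0.086, adjusted p = 3.16e-15). In the Ino80ko line with DMSO it was lower than in wild type (-2.04 ± 0.10, adjusted p = 1.63e-11).

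Pmepa1, a TGF-beta-induced inhibitor that binds SMAD2 and SMAD3, declined with the Lefty genes. It had 40.2 and 40.6 CPM with DMSO 1 h, 39.7 and 40.8 CPM with DMSO 24 h, 17.3 and 18.3 CPM at 3 h, 15.0 and 15.4 CPM at 6 h and 8.38 and 8.84 CPM at 24 h, and fell at 6 h (-1.41 ± 0.089, edgeR adjusted p = 1.99e-13). BRM014 lowered it in Ino80ko (-2.59 ± 0.17, adjusted p = 3.1e-08) and Snf2hko (-1.76 ± 0.16, adjusted p = 6.4e-07) as well. Like the Lefty genes it was lower with the analog for 24 h, at 22.3 and 26.1 CPM against 39.7 and 40.8 CPM with DMSO 24 h (-0.74 ± 0.095, adjusted p = 1.88e-06). Of the 54 genes, 3 rose and 8 fell with the analog, beside 8.91% and 9.52% of all genes, a total share near the background. Among those that fell were the cell cycle inhibitor Cdkn1a (-1.02 ± 0.14, adjusted p = 3.6e-06) and Tgfbi (-0.41 ± 0.11, adjusted p = 0.00733).

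Among the target genes the calls fell on different sides in the lines. With DMSO, 0 of 13 targets were called higher and 8 lower in Ino80ko than in wild type, beside 22.1% higher and 22.9% lower over all genes (median -1.10, against 0.0043 over all genes), among them Foxa2 (-1.61 ± 0.14, edgeR adjusted p = 2.33e-08) and Sox17 (-1.57 ± 0.15, adjusted p = 7.51e-08). In Snf2hko 6 of 13 were higher and 1 lower, beside 28.9% and 27.7% (median 0.68, against 0.003), among them Sox17 (2.50 ± 0.12, adjusted p = 5.54e-12), Foxa2 (2.18 ± 0.11, adjusted p = 3.7e-12) and Eomes (1.96 ± 0.13, adjusted p = 2.33e-10). Ldlrad4, an inhibitor that sequesters SMADs, was lower in Snf2hko (-2.16 ± 0.13, adjusted p = 3.71e-11). The receptor gene Tgfbr1 was lower in Ino80ko (-0.80 ± 0.082, adjusted p = 2.16e-07). Sox17 and Foxa2 are also endoderm markers of the sum given above. With BRM014 against DMSO, 4 targets rose and 3 fell in Ino80ko and 8 rose and 2 fell in Snf2hko. Tagln, an actin-binding target of TGF-beta, fell in both (-1.81 ± 0.15 in Ino80ko, adjusted p = 1.28e-08, and -2.04 ± 0.14 in Snf2hko, adjusted p = 2.75e-10), and Foxh1, the gene of the SMAD partner, fell in Snf2hko (-1.61 ± 0.11, adjusted p = 3.5e-10). Over all 54 genes, 14 rose and 17 fell in Ino80ko (median -0.049), beside 22% and 22.6% of all genes. In Snf2hko 24 rose and 15 fell (median 0.25), beside 28.7% and 28.2%.

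After 6 h of washout 15 of the 54 genes were higher than with DMSO 24 h and 8 lower, beside 20.8% and 19% of all genes. After 24 h 2 were higher and 10 lower, beside 8.91% and 8.52%. T, the mesoderm gene brachyury, was close to silent and had 5.09 and 5.18 CPM at 6 h of washout and 0.872 and 0.944 CPM with DMSO 24 h (2.49 ± 0.33, edgeR adjusted p = 8.67e-07), and Foxh1 rose as well (1.06 ± 0.095, adjusted p = 6.03e-10). Both lay above DMSO 24 h at the time at which Lefty2 did. Pmepa1 was still lower after 24 h of washout (-0.75 ± 0.10, adjusted p = 1.6e-06).

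Across the 13 group means of batch 2450, which share libraries' scaling and the vehicle groups, Lefty1 and Lefty2 had a Pearson correlation of 0.907, Nodal and Lefty1 of -0.745 and Inhbb and Nodal of -0.217, as a description. The Lefty transcripts share stretches, as given above, and the part of reads from these in their correlation was not tested. Of 8134 genes compared, those most like Inhbb were the keratin genes Krt17 (0.986) and Krt42 (0.980) and Mapt (0.979). Those most like Lefty1 were Tfe3 (0.981), Cmklr1 (0.966) and Angptl4 (0.963), and those most like Lefty2 were Nefh (0.977), Dtx3l (0.963) and Col6a4 (0.954). Nodal was most like Zzz3 (0.953), Vgll3 (0.946) and Slain2 (0.940). For the flatter members the closest genes were less alike: Syce2 for Tdgf1 (0.870), Mindy2 for Smad7 (0.853) and R3hcc1l for Skil (0.845).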

How the data were processed

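Strand-specific total RNA libraries were analysed from 38 samples in 17 groups. The authors deposited 1 table of raw read counts per gene, and its columns were matched to samples by title (0 columns were left unmatched). The submitters' processing notes name bcl2fastq 2.17, the aligner STAR and the build GRCm38/mm10. How reads were counted, and what was done with strand and with multiply mapping reads, is not stated in the labels or notes read here. The exonic width in the deposited table, a further column of another kind, was used only to scale levels per kb.

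Counts were fitted with edgeR 4.0.16 (R 4.3.3, limma 3.58.1): TMM scaling, genes kept by filterByExpr (minimum count 10, minimum total 15), robust quasi-likelihood tests, and Benjamini-Hochberg adjustment over all genes tested, called under 0.05. The 26 libraries of batch 2450 and the 12 of batch 2457 were fitted separately (12517 and 13130 genes). BRM014 24 h against DMSO 24 h in wild type was fitted with a batch term over 8 libraries, 4 from each batch (11787 genes). The tests are two-sided, intervals are 95% intervals, and these cover the spread between libraries only. No group had replicates that agreed within sampling noise (chi-square per degree of freedom 1.98 to 23.4 over 19 pairs).

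The members and gene lists were chosen with earlier results of these data known. Of the lists, up to 6 genes per comparison were named by smallest adjusted p (largest change at 24 h in wild type), and for each member the genes with the highest Pearson correlation of group means in batch 2450 (mean log2 CPM of at least 2). Values of such genes in other comparisons (Fst at 3 h, Pmepa1 in Snf2hko) were added after they had been seen. Alternatives were RLE factors, no filter, only the libraries compared, DESeq2 1.42.0, other vehicles, a replicate block and leaving out each library. The procedure was tested on simulated data. Some list genes and a sequence are not reported here.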

Additional observations from a re-analysis of the deposited data

Results flagged for a closer look

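For 6 gene and line pairs the effect of 24 h of BRM014 was flagged as different between a knockout line and wild type. The flag was an adjusted p under 0.05 in the edgeR interaction (2 libraries per group). The wild-type arm is part of the contrast from which these genes were chosen, so the differences are given as a description and are no independent test. For Inhbb the difference, knockout line minus wild type on the log2 scale, was 1.18 in Ino80ko and 1.72 in Snf2hko. For Lefty1 and Lefty2 it was -1.86 and -1.93 in Ino80ko. For Nodal it was 0.49 and for Skil 1.04 in Snf2hko. No sample stood apart from its group by the test for groups of 4, which only the pooled 24 h groups of wild type allow.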

How the results depend on the processing

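Of 1613 recomputed single values, 39 changed sign without being called in the main fit, which is not counted as turning round. Of the 1613, 1506 kept their side of the threshold or, if untested, moved by less than their spread. Another 47 lost a call, 34 gained one, 22 untested values moved by more than their spread and 4 turned round with a call in either fit. These 4 are all Smad7 and follow the vehicle, whose own level differed between DMSO 24 h and DMSO 1 h: 0.0086 at 3 h of BRM014 with DMSO 1 h alone (against -0.18), and, with DMSO 1 h in place of DMSO 24 h, an alternative chosen after seeing the data, 0.25 with the analog for 24 h, 0.35 after 6 h and 0.25 after 24 h of washout. Inhbb at 24 h in wild type was -4.94 in batch 2450 and -4.56 in batch 2457, and lay between -4.79 and -4.65 when 1 library was left out. The number of members called after 30 min of washout was 2 with RLE factors, with no filter and with DESeq2 (against 1). With no filter it was 1 for the analog at 1 h and 1 for BRM014 against the analog at 1 h (against 0 each), 5 for DMSO 24 h against DMSO 1 h and 5 after 24 h of washout (against 3 each). With only the libraries compared it was 1 for the analog at 1 h (against 0), 2 for the analog at 24 h (against 4) and 5 after 1 h of washout (against 2). With DMSO 1 h as vehicle it was 5 after 24 h of washout, and with DESeq2 it was 1 for BRM014 against the analog at 1 h. Leaving out 1 library gave 1 to 2 members for BRM014 1 h and for 1 h of washout. The cause was not tested.

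Over all genes, these counts moved by more than 1.5 times. With no filter, 2 genes were called at 30 min (against 0), 154 at 1 h (against 75), 80 with the analog at 1 h (against 23) and 52 for BRM014 against the analog at 1 h (against 20). With only the libraries compared, which leaves 2 residual degrees of freedom, the counts were 43 at 30 min, 49 at 1 h, 35 with the analog at 1 h, 996 with the analog at 24 h (against 2306), 895 between the vehicles (against 2320), 158 after 30 min of washout (against 671) and 655 after 24 h (against 2181). DESeq2 called 43 genes with the analog at 1 h. With DMSO 1 h in place of DMSO 24 h, 3787 genes were called with the analog at 24 h and 3278 after 24 h of washout. Leaving out 1 library moved 32 of 104 such counts, to 163 to 1080 after 30 min of washout, 2 to 62 with the analog at 1 h, 17 to 45 at 1 h of BRM014, 2 to 13 for BRM014 against the analog at 1 h, and otherwise as low as 1147 between the vehicles, 345 after 1 h (against 1014), 1132 after 24 h, 1296 with the analog at 24 h, 678 for the Ino80ko interaction (against 1186) and 2513 at 3 h of BRM014 (against 3902).

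No clear sign of pairing by replicate number was seen. Deviations of same-numbered libraries correlated at -0.110 to 0.143 over 78 pairs of groups in batch 2450 and -0.0109 to 0.0426 over 3 pairs in batch 2457. With 2 libraries per group and noise from counting, these values cannot exclude pairing. A replicate block gave 1 member for BRM014 against the analog at 1 h (Nodal, 0.30, edgeR adjusted p = 0.0469), and Lefty2 in Ino80ko with DMSO was 0.21 (adjusted p = 0.137). The block was fitted within each line, so between lines it compares the lower-numbered replicates and not the group means. This Lefty2 value therefore says nothing about pairing. The block changed no other call of the 7 members.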
